A study of Mus musculus with 6 samples.

Results

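The vacuolar ATPase (V-ATPase) was followed in CD11c+ cells of the mouse spleen through 9 of its subunit genes. The probe sets were those whose platform annotation gave exactly 1 of 10 chosen gene symbols. The genes were chosen with earlier results of these data known. They numbered 21, of 20379 probe sets that named a single gene, and covered Atp6v1a, Atp6v1b2, Atp6v1d, Atp6v1e1, Atp6v1h, Atp6v0a1, Atp6v0b, Atp6v0d1 and Atp6ap1. The tenth gene, Atp6v0c, had no probe set under its symbol, and its transcript was not analysed here. The data were 6 Affymetrix MOE430A arrays, 3 from mice hypomorphic for Atg16L1 and 3 from wild-type mice. Both groups were untreated, 8 weeks old and on the C57BL/6J background. A hypomorphic allele has reduced function, and how this one was made is not given in the sources used here. CD11c+ cells were obtained by magnetic sorting, so each array holds the RNA of a mixture of cells. The labels do not say whether each array came from its own animal, and p-values measure only the spread between these samples. The comparison asks which transcripts differ when ATG16L1 function is reduced in the body.

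The V-ATPase is a rotary proton pump that acidifies endosomes and lysosomes. Its cytosolic V1 sector hydrolyses ATP, and the rotation this drives in a central shaft turns a ring of proteolipids in the membrane V0 sector, which moves protons into the lumen. In dendritic cells and macrophages the low pH it creates activates cathepsins and sets the pace of antigen degradation. ATG16L1, part of the complex that attaches LC3 to membranes, can bind the V-ATPase directly at damaged or neutralised endolysosomes.

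Several V-ATPase and lysosomal promoters are known to carry E-box sites for the MiT/TFE transcription factors, and the windows that hold such a motif are shown here with 1 window that does not. Promoter windows from RefSeq (mouse build GRCm38.p6), 250 bases before to 50 after the transcript start that the table uses, were matched by symbol for 8 of the 10 genes, Atp6v0c included. Atp6v1b2 and Atp6v1h had no window and were not searched. The windows were searched for the palindrome CACGTG, which reads alike on both strands. It occurred in the windows of 3 genes, Atp6v0d1, Atp6v1a and Atp6v0b, and in 7.15% of all 32851 windows. The longer palindrome TCACGTGA, which contains the first, was present for Atp6v0d1 and Atp6v1a and in 0.974% of all windows. The 10-base CLEAR motif, TCACGTGA with a G before and a C after it, was in none of these windows and in 0.326% of all. In the windows of the other subunit genes, CACGTG was present for 1 of 11 genes, Atp6v0e, where it also lay within the longer TCACGTGA. The stretches below run 5′ to 3′ on the minus strand, with each CACGTG in capitals.
Atp6v0d1: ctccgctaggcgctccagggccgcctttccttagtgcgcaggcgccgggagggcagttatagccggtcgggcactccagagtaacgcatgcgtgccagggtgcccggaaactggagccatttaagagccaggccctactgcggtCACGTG
Atp6v1a: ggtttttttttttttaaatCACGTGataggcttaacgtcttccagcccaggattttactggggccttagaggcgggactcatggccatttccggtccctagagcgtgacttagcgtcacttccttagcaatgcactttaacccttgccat
Atp6v0b: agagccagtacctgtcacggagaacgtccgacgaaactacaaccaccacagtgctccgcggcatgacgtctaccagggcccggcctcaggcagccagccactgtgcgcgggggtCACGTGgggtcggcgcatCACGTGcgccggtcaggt
Atp6v1e1: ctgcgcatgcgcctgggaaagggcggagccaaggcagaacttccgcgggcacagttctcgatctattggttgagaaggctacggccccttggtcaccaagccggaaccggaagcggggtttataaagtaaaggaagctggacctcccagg
The Atp6v0d1 stretch lies at chr8:105566062-105566211 and ends 3 bases past the start, and its motif spans the start itself. The stretches of Atp6v1a (chr16:44139260-44139409), Atp6v0b (chr4:117887330-117887479) and Atp6v1e1 (chr6:120822699-120822848) end at the base before the start. For Atp6v1a that start lies 443 bases inside the gene as RefSeq annotates it in the same build, and for Atp6v0b 4 bases inside. Those of Atp6v0d1 and Atp6v1e1 are at the outer end of the gene. Relative to the start used, the motif begins 131 bases upstream in Atp6v1a, and 36 and 18 bases upstream in Atp6v0b. Atp6v1e1, a gene whose transcript was higher in the hypomorph, had no CACGTG in its window, and neither did Atp6v1d and Atp6ap1. For Atp6v1d the start used lies 370 bases inside the annotated gene, so its window does not reach the outer end. The windows of Atp6v0a1, with a start 976 bases inside, and of Atp6v0c held no CACGTG either. A match is a stretch of letters and shows no binding.

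Of the 21 probe sets, 12 were higher in the hypomorph and 0 lower by limma at a Benjamini-Hochberg adjusted p under 0.05, with adjusted p-values from 0.00294 to 0.0255 and folds from 1.26 to 1.69. Over all single-gene probe sets, 9.95% were higher and 7.73% lower at the same threshold (17.7% in either direction). The 12 belonged to 7 genes, namely all 5 of the chosen V1 genes, Atp6v0d1 and Atp6ap1. The other 9 probe sets did not pass (adjusted p from 0.188 to 0.954), among them all 4 of Atp6v0a1 and all 3 of Atp6v0b. The median log2 difference, hypomorph minus wild type, was 0.40 over the 21 and -0.04 over all probe sets. In 14 of the 21 every hypomorph array lay above every wild-type array, against 19.0% of all probe sets, and in 0 every hypomorph array lay below, against 20.8%. With the probe set of highest level per gene, 7 of 9 genes were higher and 0 lower, against 9.76% higher and 8.47% lower of all genes. At least 1.5-fold higher were 5 probe sets, against 5.28% of all. As the cells were measured in bulk, a change in the mixture of cells and a change in RNA per cell cannot be told apart.

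**Figure D1:**
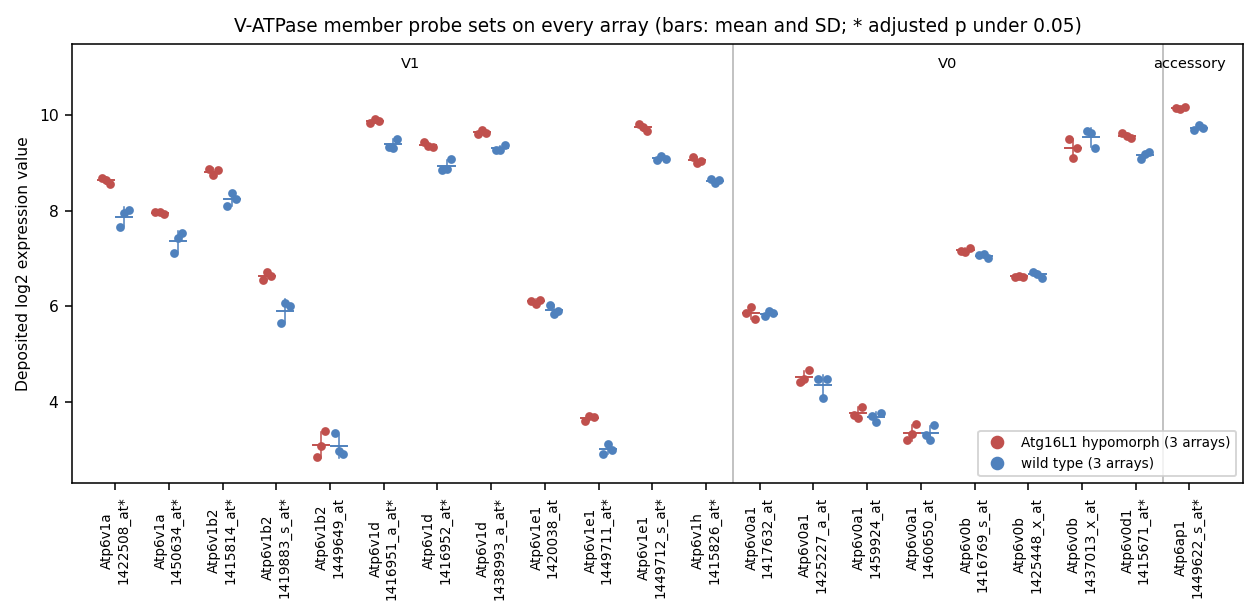
Deposited log2 value (vertical axis) of each of the 21 V-ATPase probe sets on the 3 hypomorph arrays (red, left of each pair) and the 3 wild-type arrays (blue, right), with the group mean and SD. The groups are separate for the starred V1 probe sets, Atp6v0d1 and Atp6ap1, and overlap for all probe sets of Atp6v0a1; heights of different probe sets are not comparable.

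Of the 12 probe sets of the 5 chosen V1 genes, 10 were higher, against 9.95% of all probe sets. They covered all 5 genes, and the median log2 difference over the 12 was 0.53. Further V1 genes, among them Atp6v1c1, Atp6v1f and Atp6v1g1, are given below with the other subunits. Atp6v1a encodes subunit A, which carries the catalytic ATP site. Its probe set 1422508_at read 8.70, 8.64 and 8.57 (log2) in the hypomorph, against 7.66, 7.96 and 8.03 in wild type. All 3 hypomorph values were above the wild-type ones, and wild-type replicate 1 was the lowest. The difference was 0.75 (SE 0.11), a 1.69-fold increase with a limma adjusted p = 0.00632, and it was the largest of the 21. The second probe set, 1450634_at, read 7.99, 7.97 and 7.94 in the hypomorph and 7.12, 7.43 and 7.55 in wild type, again without overlap and 1.51-fold higher (limma adjusted p = 0.0164).

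Atp6v1b2 encodes the B2 form of subunit B, which alternates with A in the hexamer of the V1 head and is the form that most cells outside kidney and ear use. By probe set 1415814_at its level was 8.88, 8.75 and 8.85 in the hypomorph, against 8.10, 8.38 and 8.25 in wild type. The groups did not overlap, and the transcript was 1.497-fold higher (log2 difference 0.58, SE 0.095, limma adjusted p = 0.00895). Probe set 1419883_s_at was 1.65-fold higher, with means of 6.64 ± 0.07 in the hypomorph and 5.91 ± 0.23 in wild type (SD, n = 3 arrays each; limma adjusted p = 0.0105). The third, 1449649_at, averaged 3.1 ± 0.27 in the hypomorph and 3.07 ± 0.24 in wild type, below the lower quartile of all probe sets, and its arrays overlapped (limma adjusted p = 0.929).

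Atp6v1d encodes subunit D, the shaft that turns inside the A and B ring. All 3 of its probe sets were higher. By 1416951_a_at the values were 9.84, 9.92 and 9.88 in the hypomorph, against 9.35, 9.32 and 9.52 in wild type, a 1.40-fold difference with no overlap (limma adjusted p = 0.0109). The log2 differences of 1416952_at and 1438993_a_at were 0.44 and 0.34 (limma adjusted p = 0.0187 and 0.0255), and their groups did not overlap either. The last of these, 1.26-fold, was the smallest difference among those that passed.

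Atp6v1e1 encodes subunit E, part of the peripheral stalks that hold the head still against rotation. Probe set 1449712_s_at gave 9.83, 9.75 and 9.68 in the hypomorph and 9.06, 9.16 and 9.09 in wild type. The gap between the groups exceeded the range within either, and the 1.57-fold difference (log2 0.65, SE 0.078) had the smallest limma adjusted p of the 21, 0.00294. Probe set 1449711_at was 1.58-fold higher (limma adjusted p = 0.0041) but dim, with means of 3.66 ± 0.06 in the hypomorph and 3.0 ± 0.10 in wild type (SD, n = 3 arrays each). Probe set 1420038_at had separate groups and did not pass, at 6.12, 6.06 and 6.14 in the hypomorph against 6.04, 5.84 and 5.91 in wild type (log2 difference 0.18, limma adjusted p = 0.188).

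Atp6v1h encodes subunit H, which regulates the pump and keeps detached V1 from hydrolysing ATP. Its probe set 1415826_at read 9.13, 9.01 and 9.04 in the hypomorph, against 8.66, 8.58 and 8.64 in wild type. The groups were separate and the transcript was 1.35-fold higher (log2 difference 0.43, SE 0.076, limma adjusted p = 0.0112).

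Of the 8 probe sets of the 3 chosen V0 genes, 1 (12.5%) was higher and 0 were lower, a share near the 9.95% over all probe sets. The difference from the chosen V1 genes was not tested. The one that rose was that of Atp6v0d1, the subunit that couples the central shaft to the proteolipid ring. It read 9.63, 9.57 and 9.52 in the hypomorph, against 9.09, 9.19 and 9.23 in wild type. The groups did not overlap and the difference was 1.32-fold (log2 0.40, SE 0.079, limma adjusted p = 0.0162).

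Atp6v0a1 encodes a1, a form of the subunit through which protons cross, best known from neurons. Its probe set of highest level, 1417632_at, read 5.86, 5.98 and 5.74 in the hypomorph and 5.80, 5.89 and 5.86 in wild type. The values interleave, with a log2 difference of 0.01 (SE 0.089, limma adjusted p = 0.947) and a 95% interval from -0.20 to 0.22. The 3 others differed by 0.01 to 0.18 with overlapping arrays. Their limma adjusted p-values ran from 0.408 to 0.954.

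Atp6v0b encodes the c″ proteolipid of the rotating ring. Its probe sets 1416769_s_at, 1425448_x_at and 1437013_x_at differed by 0.11, -0.04 and -0.23 on the log2 scale, and none passed (limma adjusted p = 0.333, 0.727 and 0.296). The last read 9.51, 9.12 and 9.32 in the hypomorph, against 9.68, 9.64 and 9.32 in wild type, so the groups overlapped, and its 95% interval ran from -0.56 to 0.10. Names ending in _s_at or _x_at mark probe sets whose probes can also match transcripts of other genes. That holds for all 3 of Atp6v0b, for 1 each of Atp6v1b2 and Atp6v1e1, and for the single probe set of Atp6ap1.

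Atp6ap1 encodes Ac45, an accessory protein that takes part in assembly of the V0 sector. It read 10.17, 10.15 and 10.18 in the hypomorph, against 9.70, 9.80 and 9.73 in wild type. The groups were far apart relative to their spread, and the difference was 1.34-fold (log2 0.42, SE 0.073, limma adjusted p = 0.0107).

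**Figure D2:**
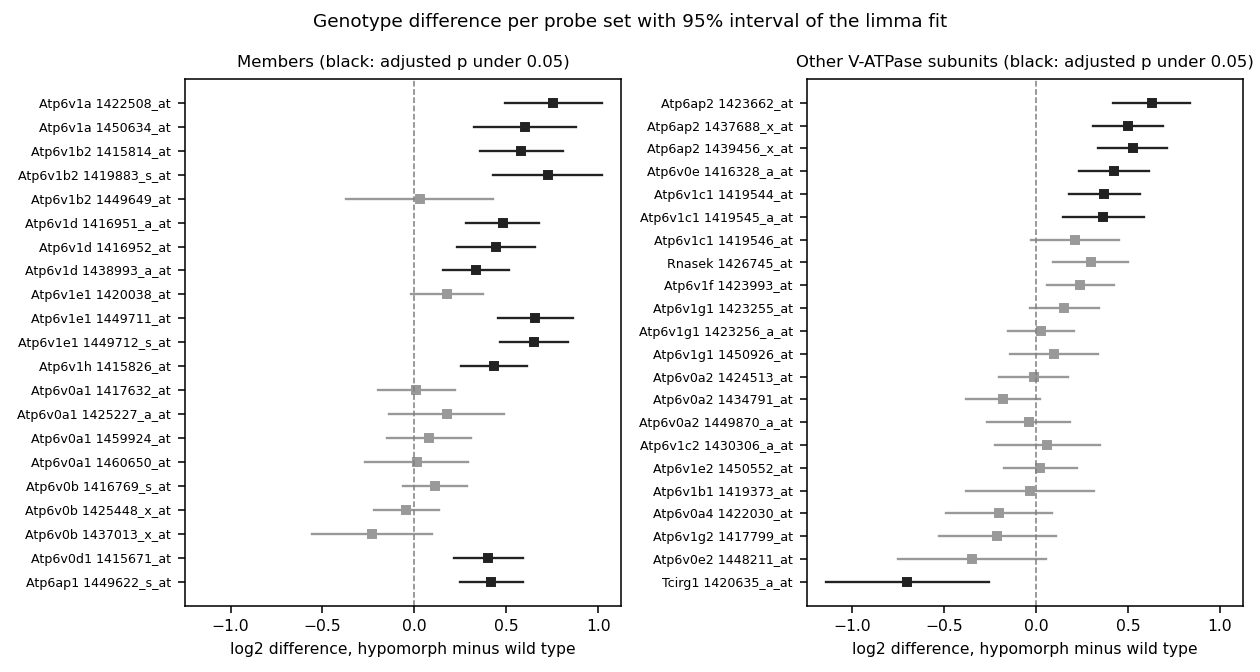
Log2 difference, hypomorph minus wild type (horizontal axis), of each V-ATPase probe set with the 95% interval of the limma fit; members on the left, other subunit genes on the right, black where the adjusted p was under 0.05. The members that passed lie between 0.34 and 0.75, while the Tcirg1 probe set is the only one that passed on the lower side, at -0.70.

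Of 22 probe sets for 14 other subunit genes of the pump, 6 (27.3%) were higher and 1 lower, with a median log2 difference of 0.08. Over all probe sets 9.95% were higher and 7.73% lower. Those that rose belonged to Atp6ap2, Atp6v0e and Atp6v1c1. Atp6ap2, an accessory subunit also known as the prorenin receptor, was higher by all 3 of its probe sets. By 1423662_at it read 10.32, 10.22 and 10.20 in the hypomorph, against 9.49, 9.63 and 9.72 in wild type, without overlap (1.55-fold, limma adjusted p = 0.00534).

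Atp6v0e encodes a small membrane subunit of V0. It read 10.60, 10.47 and 10.45 in the hypomorph and 10.06, 10.04 and 10.15 in wild type, with separate groups and a log2 difference of 0.42 (limma adjusted p = 0.0149). Atp6v1c1 encodes subunit C, which clamps V1 to V0 and leaves when the pump comes apart. It was higher by 2 of its 3 probe sets (log2 differences of 0.37 each, limma adjusted p = 0.0236 and 0.0385), and the third, at 0.21, did not pass (limma adjusted p = 0.195). The calls of Atp6v0e and Atp6v1c1 were lost without any 1 hypomorph array, that of 1419545_a_at of Atp6v1c1 also without wild-type replicate 1 or 2. All 3 calls of Atp6ap2 were kept with any 1 array left out.

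Tcirg1 was the only 1 of these genes with a probe set lower past the threshold. It encodes a3, the form of subunit a found on lysosomes of myeloid cells and on the ruffled border of osteoclasts. Its only probe set, 1420635_a_at, read 8.93, 8.65 and 8.83 in the hypomorph, against 9.86, 9.55 and 9.10 in wild type. Every hypomorph value was below every wild-type one, with wild-type replicate 3 the nearest, and the transcript was 1.62-fold lower (log2 difference -0.70, SE 0.19, limma adjusted p = 0.043). The call was lost when any 1 hypomorph array or wild-type replicate 1 or 2 was left out, and was kept without wild-type replicate 3; the difference lay between -0.90 and -0.52 without 1 array.

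Rnasek and Atp6v1f, whose groups did not overlap, missed the threshold at log2 differences of 0.30 and 0.24 (limma adjusted p = 0.0553 and 0.0757). Neither Atp6v1g1 nor Atp6v0a2 passed by any of their 3 probe sets each. All 3 differences of Atp6v0a2 were below 0, and by 1434791_at every hypomorph array lay below every wild-type array (log2 difference -0.18). All 3 of Atp6v1g1 were above 0, and by 1423255_at every hypomorph array lay above (0.15). The 6 forms known mainly from kidney, testis, brain or other specialised cells, Atp6v0a4, Atp6v0e2, Atp6v1b1, Atp6v1c2, Atp6v1e2 and Atp6v1g2, had 0 of 6 probe sets past the threshold by limma, and none with separate groups. Their limma adjusted p-values lay between 0.206 and 0.898, and 4 of the 6 were below the lower quartile of level. Atp6v0d2 and Atp6v1g3 were not analysed here.

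Assembly of V0 in the endoplasmic reticulum needs dedicated factors. Of 8 probe sets for 6 assembly and regulatory genes, 3 were higher and 0 lower, beside 9.95% and 7.73% of all probe sets. Vma21, an integral chaperone of V0 assembly, read 7.31, 7.19 and 7.03 by 1427937_at in the hypomorph and 6.55, 6.56 and 6.57 in wild type. Its groups were separate and the difference was 0.61 (SE 0.092, limma adjusted p = 0.00651), with 0.43 by its second probe set (limma adjusted p = 0.0147), whose call was lost without any 1 hypomorph array. Ccdc115, an assembly factor related to yeast Vma22, was 0.35 higher (limma adjusted p = 0.0218), a call lost without any 1 hypomorph array or without wild-type replicate 3. Dmxl1, Oxr1, Rogdi and Tmem199 did not pass. Of the 8 probe sets, 6 had every hypomorph array above every wild-type array and 2 had every one below, against 19.0% and 20.8% of all probe sets. The 2 were those of Rogdi and Tmem199, at log2 differences of -0.28 and -0.16 (limma adjusted p = 0.0774 and 0.216). The count lower was 1 with the filter at the median level, with quantile normalization and with trend and robust eBayes.

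The MiT/TFE factors that bind the E-box motif shown above were measured for 3 of 4 genes, and Tfe3 was not analysed here. Mitf was higher by 1455214_at, at 8.02, 7.99 and 8.07 in the hypomorph against 6.25, 6.66 and 6.53 in wild type (2.92-fold, limma adjusted p = 0.00102). Tfec, a family member expressed in macrophages, was 3.36-fold higher (limma adjusted p = 0.00285). Tfeb did not pass, with 7.17 ± 0.01 in the hypomorph and 7.25 ± 0.11 in wild type (SD, n = 3 arrays each; limma adjusted p = 0.585). Probe set 1422025_at of Mitf did not pass either (limma adjusted p = 0.164).

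Over the 6 arrays the mean of the 9 genes, each centred on its own mean and taken by its probe set of highest level, was 0.25, 0.17 and 0.16 in the hypomorph and -0.25, -0.16 and -0.18 in wild type. The 5 genes outside the V-ATPase with the most similar course were Zmpste24, a zinc metalloprotease, Hbegf, a growth factor of the EGF family, the adhesion gene Clmp, the lysosomal beta-galactosidase gene Glb1, and Emc4 of the ER membrane complex. Their Pearson correlations with that mean were 0.9988 to 0.9997 over the 6 arrays. The arrays share the split by genotype, and 731 of 12370 genes had a correlation above 0.95.

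Other measures differed between the same arrays. Atg16l1 itself was lower in the hypomorph, at 6.13, 5.85 and 6.11 against 7.05, 7.11 and 7.04 in wild type (2.05-fold, limma adjusted p = 0.00139). Over all probe sets 9.95% were higher and 7.73% lower, shares to set beside each marker count here and in the next paragraph. Of 27 probe sets for 17 macrophage marker genes, 24 were higher in the hypomorph and 0 lower. Their mean level ran from 10.58 to 10.68 in the hypomorph and from 8.65 to 9.29 in wild type, with Adgre1 4.32-fold, C1qa 3.71-fold, Vsig4 2.97-fold and Mertk 2.41-fold higher. With 1 array left out, 23 or 24 of these probe sets were higher.

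Of 19 dendritic cell marker probe sets, 3 were higher, all of Sirpa, and 2 lower, namely Itgax (1.30-fold) and 1 of 3 for Zbtb46 (1.54-fold). The Itgax call was lost without any 1 hypomorph array or wild-type replicate 1 or 3, and that of Zbtb46 without hypomorph replicate 2 or 3. Flt3 did not pass, with 9.62 ± 0.10 in the hypomorph and 9.94 ± 0.17 in wild type (SD, n = 3 arrays each, limma adjusted p = 0.084). H2-Ab1 stood at 13.38 ± 0.06 in the hypomorph and 13.30 ± 0.04 in wild type by 1450648_s_at, and did not pass. Its 1451721_a_at and 1425477_x_at did not pass either, at log2 differences of 0.19 and 0.13. In both, every hypomorph array lay above every wild-type array. Of the 19 dendritic cell differences 12 were above 0. In 6 of the 19 every hypomorph array lay above every wild-type array and in 5 below, against 19.0% and 20.8% of all probe sets. Markers of B cells were lower in 4 of 9 probe sets (1 without hypomorph replicate 3, 2 without hypomorph replicate 1 or wild-type replicate 3, and 8 without wild-type replicate 1). Of the plasmacytoid dendritic cell markers 1 of 12 probe sets, of Ccr9, was higher and 1, of Spib, lower; the first count was 0 without any 1 hypomorph array and 3 without wild-type replicate 1, and the second was 0 without hypomorph replicate 3. Neutrophil markers were higher in 2 of 7 probe sets, of Ngp (2.99-fold, limma adjusted p = 0.00596) and Ltf (2.13-fold, limma adjusted p = 0.04), and the count was 1 without any 1 hypomorph array or wild-type replicate 1 and 3 without wild-type replicate 3. Their mean level per array ran from 6.74 to 6.81 in the hypomorph and from 6.30 to 6.60 in wild type, without overlap. The list was mixed in direction, with 3 of the 7 neutrophil probe sets above 0 and a median log2 difference of -0.03. S100a9 was at -0.59 with every hypomorph array below every wild-type array, and S100a8 at -0.28 (limma adjusted p = 0.111 and 0.351). Epor, 1 of 7 erythroid probe sets, was 1.6-fold higher, and without hypomorph replicate 3 the count was 2. Ccr9, Spib, Ngp, Ltf, S100a9, S100a8 and Epor were named after their values were seen. Of 14 T and NK cell probe sets 0 passed by limma (1 at an unadjusted p under 0.05, higher).

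Array controls also differed between the groups. Poly-A spike-ins, bacterial RNAs added before labelling, averaged 7.69 ± 0.18 in the hypomorph and 9.48 ± 0.50 in wild type (SD, n = 3 arrays each), without overlap and with an exact permutation p = 0.1 (two-sided), the smallest that 3 against 3 arrays can give. Each control named next also separated the groups, with the same exact permutation p = 0.1. Hybridization controls, added after labelling, averaged 10.33 ± 0.06 in the hypomorph and 11.35 ± 0.28 in wild type, and 18S rRNA probe sets 8.76 ± 0.06 in the hypomorph and 9.43 ± 0.21 in wild type. The log2 gap between 3′ and 5′ probe sets, a sign of RNA integrity and labelling, was 0.74 ± 0.04 in the hypomorph and 0.97 ± 0.04 in wild type for beta-actin. For Gapdh it was 0.39 ± 0.02 in the hypomorph and 0.54 ± 0.09 in wild type. Wild-type replicate 1, whose title begins with another number than the other 5, had the lowest macrophage mean, the highest spike-in mean and the lowest mean of the 9 V-ATPase genes. The part of the macrophage and neutrophil transcripts, the hybridization controls and the 3′ to 5′ gaps in the V-ATPase result was not tested.

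**Figure D3:**
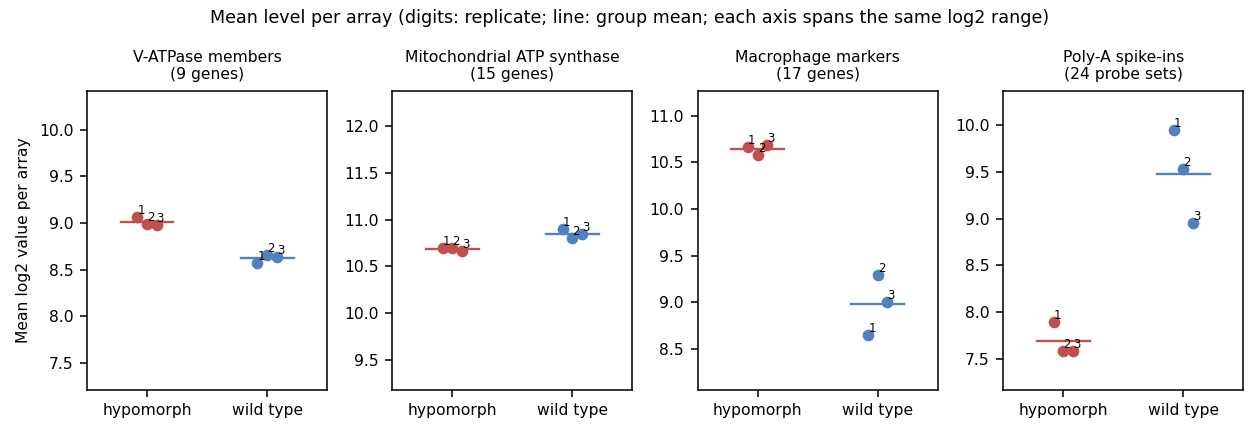
Mean log2 value per array (vertical axes, each spanning the same range) of the 9 V-ATPase member genes, 15 mitochondrial ATP synthase genes, 17 macrophage marker genes and 24 spike-in probe sets; red points are hypomorph arrays, blue ones wild type. The V-ATPase and macrophage means are higher in every hypomorph array, and those of the ATP synthase and spike-ins lower.

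With the mean spike-in level of each array as a covariate, none of the 21 probe sets passed by limma, nor did any of the 20379 (1932 at an unadjusted p under 0.05, 1 of them a member), and the median ratio of its standard errors to those of the fit without it was 2.95. In that fit 11 of the 12 raised probe sets had a difference above 0, from 0.12 to 0.68, and the second probe set of Atp6v1a was at -0.04. Leaving out hypomorph replicate 1, 2 or 3 left 8, 6 and 5 member probe sets higher, and leaving out a wild-type array 11 or 12. The 4 that passed without any 1 array were 1422508_at of Atp6v1a, 1415814_at of Atp6v1b2, and 1449712_s_at and 1449711_at of Atp6v1e1. The calls of Atp6v0d1, of 1450634_at of Atp6v1a and of 1416952_at and 1438993_a_at of Atp6v1d were lost without any 1 hypomorph array, the last also without wild-type replicate 2. Atp6v1h and Atp6ap1 lost theirs without hypomorph replicate 3, Atp6v1d 1416951_a_at without hypomorph replicate 2 or 3, and Atp6v1b2 1419883_s_at without hypomorph replicate 2. All 12 stayed above 0 with any 1 array left out.

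**Figure D4:**
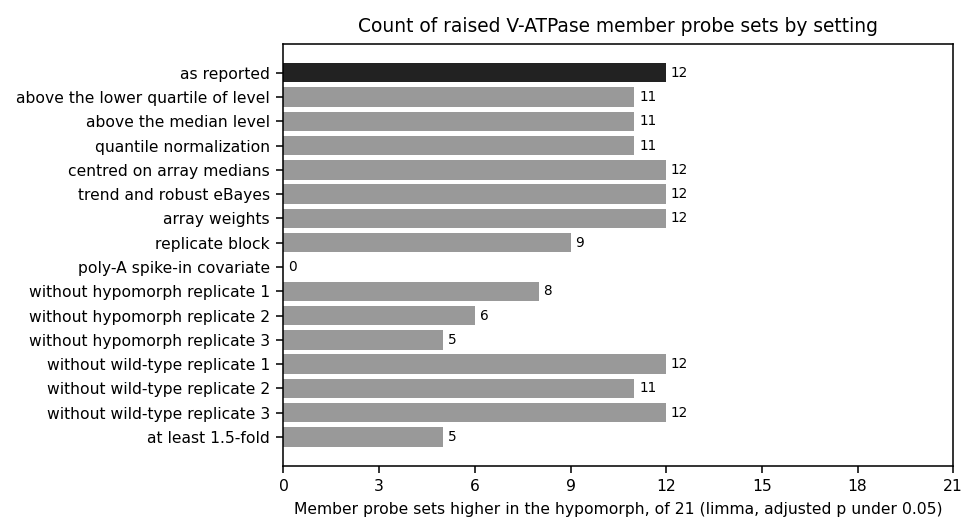
Number of V-ATPase member probe sets higher in the hypomorph (horizontal axis, of 21; 18 and 16 were tested under the filters at the lower quartile and the median) for the reported fit (black) and alternatives (grey). The count is 12 as reported, 5 to 8 without 1 hypomorph array and 0 with the spike-in covariate.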

How the data were processed

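RNA of CD11c+ spleen cells was hybridised to Affymetrix MOE430A arrays. The deposited log2 values, 1 per probe set and array, were made with Affymetrix Power Tools per the submitters' processing notes; the version and the summarization method are not stated there. The log base was inferred from the range, 1.96 to 14.33, and normalization between arrays from close array medians. The title of wild-type replicate 1 begins with another number than the others, and that of wild-type replicate 3 names another array version; the labels explain neither. Of 22690 probe sets, 64 were controls, 1 had no value, 691 named several genes, 1555 had none listed, and 20379 named 1 gene by the platform annotation.

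The genotype difference was fitted by lmFit and eBayes of limma 3.58.1 (R 4.3.3; two-sided) on all 6 arrays and all 20379 probe sets, without a filter, with Benjamini-Hochberg adjustment over all of them. The script was tested on simulated data. Python 3.11.15, pandas 2.3.3 and matplotlib 3.10.9 were used. The number of arrays limits precision, and levels of different probe sets were not compared. Members, lists and alternatives were chosen with earlier results of these data known. Named were all member probe sets, related genes past the threshold (up to 4 per context list), fixed markers and the 5 genes of most similar course. Alternatives were 1 probe set per gene, gene means, 2 level filters, quantile normalization, median centring, trend with robust eBayes, array weights, replicate block, spike-in covariate, a 1.5-fold minimum and leaving out each array.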

Additional observations from a re-analysis of the deposited data

How the results depend on the processing

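The 12 higher and 0 lower member probe sets stayed at 11 or 12 higher under quantile normalization, centring, both level filters, trend with robust eBayes and array weights, and 0 were lower by limma in any setting (at an unadjusted p under 0.05, 1 without wild-type replicate 3 and 0 in every other setting). With 1 value per gene 7 of 9 genes were higher by either rule, and with a 1.5-fold minimum 5 probe sets. Leaving out 1 array gave 5 to 12. Over all probe sets 2028 were higher and 1576 lower. These counts were 1210 and 1050 with the brightest probe set per gene (9.76% and 8.47% of 12393), 1231 and 1016 with gene means, 1075 and 537 with a 1.5-fold minimum, and 932 to 1967 and 347 to 1577 without 1 array. The other subunits, 6 higher and 1 lower, had 3 higher with the brightest probe set per gene, 1 higher with a 1.5-fold minimum, and 3 to 6 higher and 0 to 1 lower without 1 array.

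The labels do not say whether equal replicate numbers pair the samples. Deviations from group means correlated by 0.159, 0.019 and 0.1 for numbers 1, 2 and 3. Hypomorph replicates 1 and 3 correlated best with their own number, and hypomorph replicate 2 with wild-type replicate 3 (0.134). With 3 arrays per group these correlations can neither show nor exclude pairing. With the replicate block 9 member probe sets were higher, 3 other-subunit probe sets were higher and 0 lower, and 861 of all probe sets were lower.

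With the spike-in covariate 0 of all, member and other-subunit probe sets were higher or lower by limma (1932 of all at an unadjusted p under 0.05). Atg16l1 was at -0.91 (adjusted p = 0.476), and Tcirg1 turned to 0.62, Atp6v0b to 0.15 and 0.56, Atp6v0a1 to -0.081, -0.099 and -0.495, Atp6v1a 1450634_at to -0.036, Atp6v1c1 1419545_a_at to -0.028, Clcn3 to -0.13, Flt3 to 0.16 and Tfeb to 0.28. Elsewhere only values near 0 changed sign. Atp6v0a1 1417632_at was at -0.005 with array weights and between -0.050 and 0.072 without 1 array. Without 1 array Atp6v0a1 1460650_at lay between -0.073 and 0.098, and Atp6v1b2 1449649_at between -0.114 and 0.164. Spike-in means did not overlap between the groups, so genotype and covariate are hard to separate in the spike-in fit. Its standard errors were larger (median ratio 2.95 to the fit without the covariate), and its values are imprecise. The cause of the sign changes was not tested. Which probe sets are near background is not known, since no detection calls were used.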

Other observations

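The mitochondrial ATP synthase, the other large rotary ATPase of these cells, had 26 probe sets for 15 genes, of which 8 were lower in the hypomorph and 0 higher (limma, adjusted p from 0.0169 to 0.0477), with a median log2 difference of -0.18. Over all probe sets 7.73% were lower. The count of 8 was 1, 0 and 0 without hypomorph replicate 1, 2 and 3, 5 or 6 without a wild-type array, and 3 with the replicate block. Atp5e, a subunit of the central stalk, averaged 10.78 ± 0.07 in the hypomorph and 11.17 ± 0.05 in wild type (SD, n = 3 arrays each; 1.31-fold lower). Atp5g2, which encodes a proteolipid of the membrane ring, averaged 10.14 ± 0.05 in the hypomorph and 10.48 ± 0.03 in wild type by 1415980_at. Atp5d was lower by 0.39 on the log2 scale by 1456580_s_at, while its 1423716_s_at, at -0.23, did not pass (limma adjusted p = 0.073). Atp5k was lower by 0.37 by 1434053_x_at. The calls of Atp5g2, Atp5d and Atp5k were lost without any 1 hypomorph array, and that of Atp5e without hypomorph replicate 2 or 3.

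Of 19 probe sets for 9 genes of lysosomal ion transport, 2 were higher and 0 lower by limma, beside 9.95% higher over all probe sets. Mcoln1, which encodes the calcium channel TRPML1, read 5.76, 5.50 and 5.50 in the hypomorph and 5.11, 4.91 and 5.20 in wild type by 1416671_a_at (limma adjusted p = 0.0236), while its other probe set overlapped between the groups. Clcn3, an endosomal chloride-proton exchanger, was higher by 1 of its 4 probe sets (log2 difference 0.43, limma adjusted p = 0.042). Its others did not pass, at 0.155, -0.055 and -0.179. The last is its brightest, with every hypomorph array below every wild-type array. With the brightest probe set per gene, 0 of the 9 genes were higher. The calls of Mcoln1 and Clcn3 were lost without any 1 hypomorph array, and that of Clcn3 also without wild-type replicate 1 or 2.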
